A study of Mus musculus with 4 samples.

Results

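The genes described here are those of the proteasome, the protease of cytosol and nucleus that degrades ubiquitin-tagged proteins, in mouse oocytes, preimplantation embryos and embryonic stem cells. Every gene whose symbol begins with Psma, Psmb, Psmc, Psmd, Psme, Psmf or Psmg followed by a number was taken, which gave 50 of the 20171 genes measured. By role they were 7 alpha and 7 standard beta subunits of the 20S core, 3 immunoproteasome beta subunits, 2 tissue-specific core subunits, 6 ATPase and 11 non-ATPase subunits of the 19S regulatory particle, 3 chaperones of 19S assembly, 5 activator genes, 1 inhibitor gene and 4 chaperones of 20S assembly. The last gene, Psmc3ip, matched by its symbol alone and encodes a cofactor of meiotic recombination, not a proteasome subunit. Of the 68012 full-length isoforms in the isoform table, 588 belonged to 45 of these genes.

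The 20S core is a barrel of stacked rings, with the alpha subunits on the outside and the beta subunits within. Psmb6, Psmb7 and Psmb5 encode the beta subunits with caspase-like, trypsin-like and chymotrypsin-like activity, and Psmb9, Psmb10 and Psmb8 encode the subunits that replace them in the immunoproteasome, which is induced by interferon and trims peptides for antigen presentation. The 19S particle caps the barrel, recognises and removes ubiquitin, and unfolds substrates with its ring of ATPases, whereas the activators encoded by Psme1, Psme2, Psme3 and Psme4 open the core without ubiquitin recognition. In early embryos the proteasome is known for the removal of maternal proteins after fertilization.

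Single blastomeres were sequenced by HIT-scISOseq, which reads full-length cDNA with unique molecular identifiers (UMIs) on a PacBio instrument, in 4 runs labelled as preimplantation embryos of strain DBA/2J x C57BL/6J. The first 3 runs held 161 cells, and the stage and embryo of each cell were read from its column name, since the labels of the runs give neither. There were 10 oocytes, collected 20 hours after hCG injection, 9 zygotes (22 to 24 hours), 5 early 2-cell (E2C) embryos (30 to 32 hours), 6 late 2-cell (L2C) embryos (46 to 48 hours), 5 4-cell (54 to 56 hours), 4 8-cell (68 to 70 hours) and 4 16-cell embryos (78 to 80 hours). All came from superovulated C57BL/6J females, which for the embryos were mated to DBA/2NCrl males by the study's methods. These 43 oocytes, zygotes and embryos, holding 121 cells, served as replicates, with sister cells averaged first, so that a p-value measures the spread between embryos. Embryo numbers were taken as unique within a stage, which the names do not state. The 22 32-cell cells, the 13 blastocyst cells and 5 cells of the male E14 Tg2A embryonic stem cell (mESC) line name no embryo, and no source used here gives the run of a single cell, so that effects of the run were not tested. These cells are given by their range and median with no test. The fourth run held 4 oocytes taken as intact, 6 1/2 oocytes and 6 1/4 oocytes.

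A cell held 4985 to 389775 UMIs, with medians of 195670.5 in oocytes and 32466 in 4-cell embryos, so that low values were measured more closely in the early stages. Levels are copies per 100000 UMIs of a cell, as the authors scaled them. A UMI marks 1 cDNA molecule, so no division by length was made, and every level is relative to all RNA of its cell: more RNA of a gene and less of the others cannot be told apart. The 9 oocyte markers summed to 1789 to 2979 copies in oocytes, 342 to 577 at E2C and 40.5 to 144 at L2C. The 8 late 2-cell markers, such as Zscan4 and Tcstv genes, were higher at E2C (40.2 to 98.8 copies) than in most L2C embryos (median 7.69, range 3.49 to 52.9), which goes against the L2C label for this list. The 9 cumulus cell markers measured were at 1.09 to 5.65 copies at E2C and 5.56 to 24.9 at L2C. At L2C 7 of the 9 (Has2, Tnfaip6, Ptgs2, Inha, Inhba, Cyp19a1 and Fshr) had no UMI and the sum was mostly Amhr2 (mean 13.5 copies), while at E2C 6 had none and Cyp19a1 was the highest (mean 2.89). Their part in the results was not tested. L2C embryo 1 stood apart from the other L2C embryos, as 1 cell with 17971 UMIs against 103135 to 125101 in each of the other 5, and had an array weight of 0.158 against 0.442 to 0.727. Without it, 28 members were higher and 7 lower from E2C to L2C, against 29 and 8 with it. Embryo 2 of the 4-cell stage also stood apart, with 25411 UMIs in 2 cells, against 61798 to 165953 in the other 4-cell embryos. One of its cells held 4985 UMIs, and its array weight was 0.187 against 0.431 to 1.02.

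In oocytes the mRNAs of the 20S core were present in very unequal amounts. Psma2, an alpha subunit gene, was at 110 ± 18.9 copies (SD, n = 10) and made up 39.5 ± 3.84% of the summed level of the 14 standard core genes. At the other end Psmb7 was at 1.99 ± 1.34 copies and Psmb5 at 2.04 ± 0.592, so that the highest and lowest gene of a particle built from equal numbers of each subunit were 55.4-fold apart. Only 6 of the 14 core genes reached a mean of 10 copies. In zygotes Psma2 stood at 132 ± 35.3 copies (n = 9), the ratio was 65.2 and again 6 core genes reached 10 copies. At E2C the ratio was 48.4 and 5 core genes did. The 17 subunit genes of the 19S particle were lower and also uneven, from 19.4 ± 6.95 copies for Psmd4, a ubiquitin receptor, to 0.458 ± 0.465 for Psmd13, a lid subunit.

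From L2C on the core genes were close to one another. The ratio of highest to lowest was 4.04 at L2C (Psmb1 at 60.9 copies against Psma5 at 15.1) and between 2.46 and 4.74 at each later stage, mESCs included. All 14 core genes were at 10 copies or more on average at L2C, and Psma2 then stood among them at 40.5 ± 6.65 copies (n = 6). The SD of the log2 level over the 14 genes went from 1.49 at E2C to 0.573 at L2C. For the 19S particle the ratio was 19.3 at E2C, 9.30 at L2C and 4.01 at 16-cell, and the number of its genes at 10 copies or more was 2, 14 and 17. These ratios describe the levels and were not tested.

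**Figure D1:**
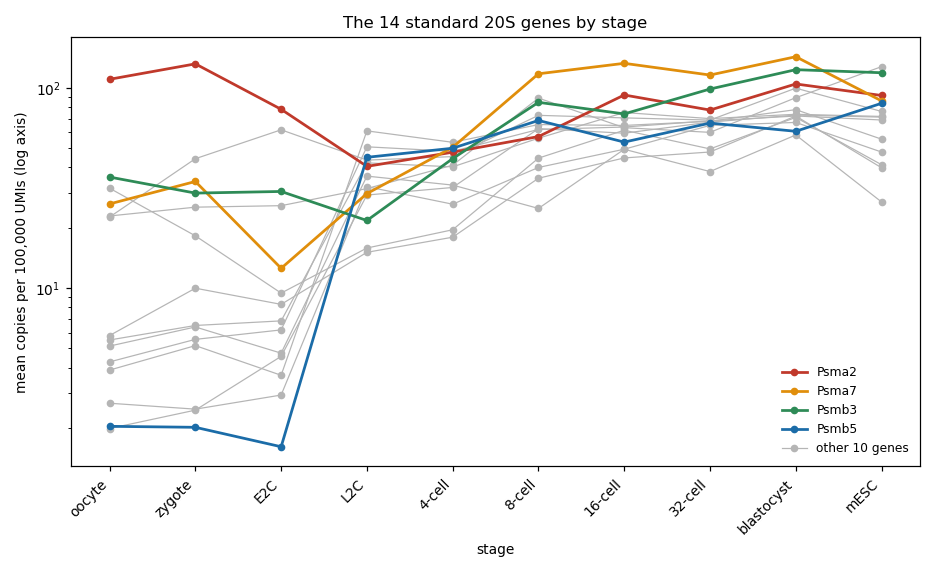
Mean level of the 14 standard 20S core genes (copies per 100000 UMIs, log axis) at each stage, 1 line per gene, with Psma2, Psma7, Psmb3 and Psmb5 coloured. The lines spread over a 55.4-fold range in oocytes and lie within 4.74-fold of each other at every stage from L2C on.

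The summed level of the 31 core and 19S genes was 375 ± 58.4 copies in oocytes, 427 ± 87.4 in zygotes and 355 ± 62.5 at E2C. It was 799 ± 189 at L2C, 968 ± 174 at 4-cell, 1496 ± 230 at 8-cell and 1637 ± 137 at 16-cell (n = 6, 5, 4 and 4). The E2C embryos, which ran from 257 to 429 copies, did not overlap with the L2C embryos, which ran from 567.6 to 986. This depended on the scaling. The lowest L2C value was that of embryo 1, a single cell, whose TMM factor was 2.242, against 0.966 to 1.035 at E2C. Divided by these factors, its sum lay within the E2C range, while the other L2C embryos (factors 1.17 to 1.323) stayed above it. The alpha ring sum was 212 ± 52.2 copies in zygotes and 126 ± 32.9 at E2C, and that of the beta ring 112 ± 30.9 and 131 ± 26.9. By 16-cell the ATPase genes summed to 263 ± 51.4 copies against 29.7 ± 4.57 at E2C, and the non-ATPase genes to 420 ± 104 against 68.6 ± 8.18. Single 32-cell cells had a median of 1558 copies (1135 to 1952), blastocyst cells 1997 (1466 to 2355) and mESCs 1541 (1456 to 1764), so that these ranges overlap with the 16-cell embryos, which spanned 1453 to 1782. Among sister blastomeres the coefficient of variation of the sum was between 1.40% and 19.2% in the 23 embryos with more than 1 cell. Within 16-cell embryo 2 the sisters ran from 957 to 1747 copies.

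**Figure D2:**
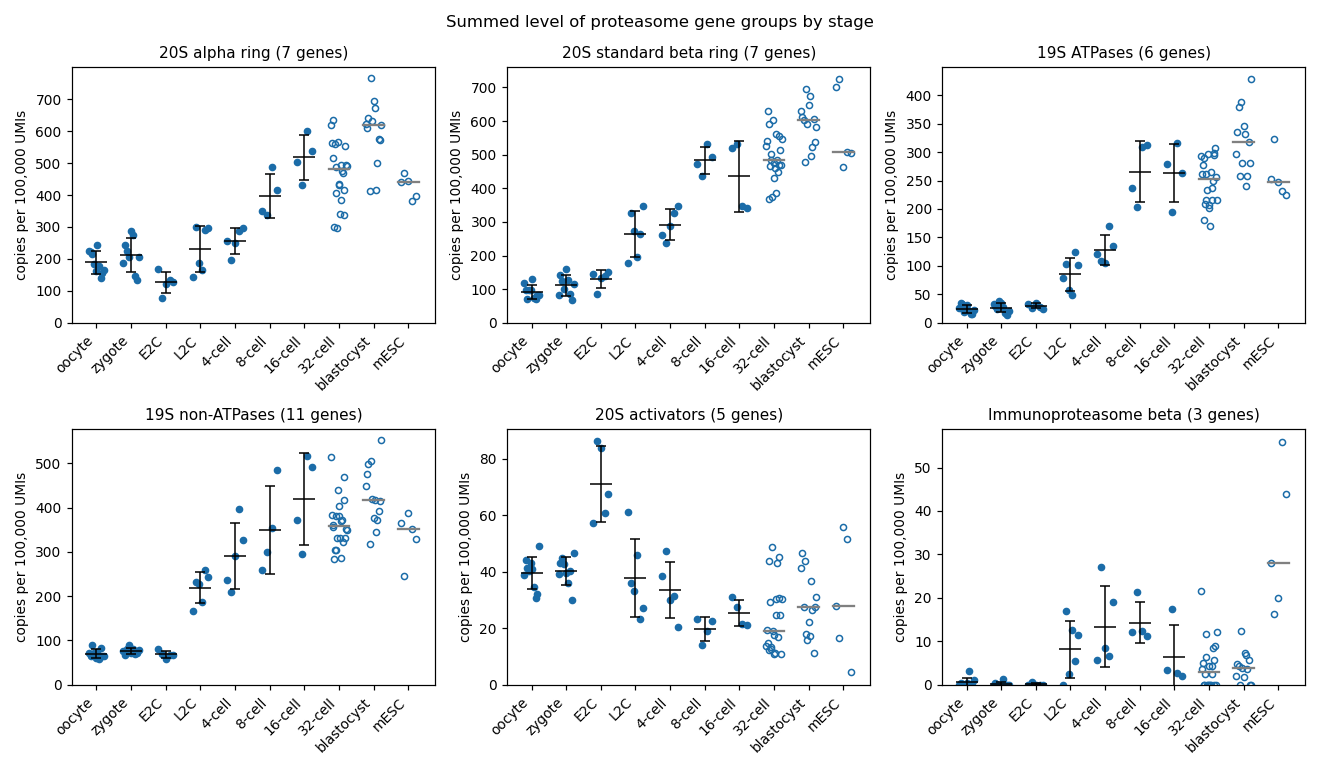
Summed level of the alpha ring, the standard beta ring, the ATPase and the non-ATPase 19S subunits, the activators and the immunoproteasome subunits (copies per 100000 UMIs) by stage. Filled points are embryos with their mean and SD, and open points are single cells with no embryo named, with a grey bar at their median. The non-ATPase sum is near 70 copies up to E2C and 220 ± 35.2 at L2C, whereas the activators reach 71.1 ± 13.3 at E2C and 25.4 ± 4.70 at 16-cell.

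Between E2C and L2C, the interval that holds the major activation of the embryonic genome, most proteasome genes rose. Expression was compared with limma on log2(copies + 1) of embryo means, in 1 fit of the 7 stages over the 11682 genes that reached 1 copy in at least 4 embryos. This scale understates the change of low genes. A gene was called at a Benjamini-Hochberg adjusted p under 0.05 over all genes. Of the 45 members tested, 29 (64.4%) were called higher and 8 (17.8%) lower at L2C, against 31.1% and 27.8% of all genes, and their median difference was 1.41 against 0.03 for all genes. Psmc3ip, which is not a proteasome subunit, is among the 45 and the 29. The E2C and L2C embryos did not overlap for 16 of the higher and 2 of the lower genes, against 13.0% and 14.6% of all genes. Of all genes called, 52.8% were higher, and 42.3% with median-of-ratios scaling, which moved the median of all genes to -0.22. The comparisons of neighbouring stages share embryos with each other and with the comparison of early and late stages below.

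Among the beta subunits, 4 of 7 standard genes rose and none fell, with a median of 2.70. Psmb5, the chymotrypsin-like subunit (ENSMUSG00000022193.7, chr14:54614119-54618022, minus strand, mm10), was at 1.30, 2.13, 2.98, 1.65 and 0 copies in the E2C embryos and at 33.4 to 56.9 copies (median 45.6) in the 6 L2C embryos. The groups lay far apart, and the difference was 4.24 ± 0.34 (log2, SE; limma adjusted p = 3.79e-16). Psmb1, a non-catalytic beta subunit, went from 0.710 to 6.33 copies at E2C to 50.1 to 71 at L2C, by 3.90 ± 0.36 (limma adjusted p = 3.16e-14). Psmb4, whose product is also non-catalytic, was at 3.05, 2.47, 2.91, 5.10 and 1.09 copies at E2C and at 16.7 to 45.3 at L2C, a difference of 3.16 ± 0.39 (limma adjusted p = 2.83e-10). The trypsin-like Psmb7 rose by 2.70 (limma adjusted p = 3.76e-07), though L2C embryo 1, at 5.56 copies, lay within the E2C range of 0.965 to 8.49. The third catalytic subunit gene, Psmb6, was not called, with 25.8 ± 5.76 copies at E2C and 31.4 ± 13.7 at L2C (0.22, limma adjusted p = 0.559). Psmb2 and Psmb3, already at 61.7 ± 14.5 and 30.4 ± 9.67 copies at E2C, had differences of -0.39 and -0.64 that did not pass the test.

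The promoter of Psmb5 is shown as the member with the largest difference, beside that of Psmd9, a member that fell. Both hold TGACNNNGC, the core of the element bound by NFE2L1 and NFE2L2, factors known to raise proteasome genes. The sequences are the 250 bases before the RefSeq start of the gene in GRCm38.p6, written 5′ to 3′ on the strand of the gene, with the match in capitals.
Psmb5, chr14:54617996-54618245, minus strand: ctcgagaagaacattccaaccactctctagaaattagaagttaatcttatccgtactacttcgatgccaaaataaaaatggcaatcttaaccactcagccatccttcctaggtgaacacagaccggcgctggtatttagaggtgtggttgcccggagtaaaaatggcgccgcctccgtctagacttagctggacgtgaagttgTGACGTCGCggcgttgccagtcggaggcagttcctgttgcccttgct
Psmd9, chr5:123227940-123228189, plus strand: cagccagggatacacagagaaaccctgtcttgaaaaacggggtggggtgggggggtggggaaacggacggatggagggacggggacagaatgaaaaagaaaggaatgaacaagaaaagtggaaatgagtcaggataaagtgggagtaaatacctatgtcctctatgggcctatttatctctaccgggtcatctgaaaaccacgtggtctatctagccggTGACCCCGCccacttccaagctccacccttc
Promoters were matched for 42 of the 50 genes. On either strand, TGACNNNGC was found in 5 of them (Psmb5, Psmb6, Psmc6, Psmd12 and Psmd9), which is 11.9%, and in 11.5% of the 27025 promoters of all genes. CCAAT was found in 15 (35.7%, against 37.5% of all), and TGACTCAGC, which overlaps with TGACNNNGC, in 0 (0.426% of all). The 5 genes with a match had differences between E2C and L2C that were 4.24 for Psmb5, 2.59 for Psmd12, 0.22 for Psmb6, 0.19 for Psmc6 and -1.39 for Psmd9, of which those of Psmb6 and Psmc6 were not called (limma adjusted p = 0.559 and 0.654). A match is only a match of letters.

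The alpha ring was mixed, with 4 genes higher, 1 lower and 2 not called, and a median of 1.08. Psma6, Psma4 and Psma3 rose by 3.07, 2.82 and 2.59, from means of 4.73 to 6.86 copies to 36.2 to 50.7. Psma2, the most abundant member up to this stage, fell. Its E2C embryos were at 93.4, 44.3, 77.0, 89.9 and 86.0 copies and its L2C embryos at 29.3 to 46.8 (median 41.6), a difference of -0.88 ± 0.27 (limma adjusted p = 0.00378). E2C embryo 2 lay among the L2C values, and the other 4 lay above all of them.

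All 11 non-ATPase genes of the 19S particle were called, 10 higher and 1 lower, with a median of 1.41. Psmd7, a lid subunit, was at 3.49, 4.05, 2.04, 1.52 and 0 copies at E2C and at 25.9 to 50.1 (median 35.3) at L2C, and rose by 3.56 ± 0.38 (limma adjusted p = 4.81e-12). Psmd14, its partner and the enzyme that cuts ubiquitin chains off substrates, rose by 2.88, and the lid genes Psmd11 and Psmd12 by 3.12 and 2.59. The exception was Psmd2, a base subunit that docks ubiquitin receptors, which was at 12.7 to 18.4 copies in the E2C embryos and 3.22 to 5.92 at L2C. These groups did not overlap, and the difference was -1.37 ± 0.31 (limma adjusted p = 1.39e-04). Of the 6 ATPase genes 4 rose, by 2.51 for Psmc2, 1.84 for Psmc4, 1.66 for Psmc3 and 1.08 for Psmc1, and 2 were not called (Psmc5 0.79, limma adjusted p = 0.0613; Psmc6 0.19, 0.654).

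**Figure D3:**
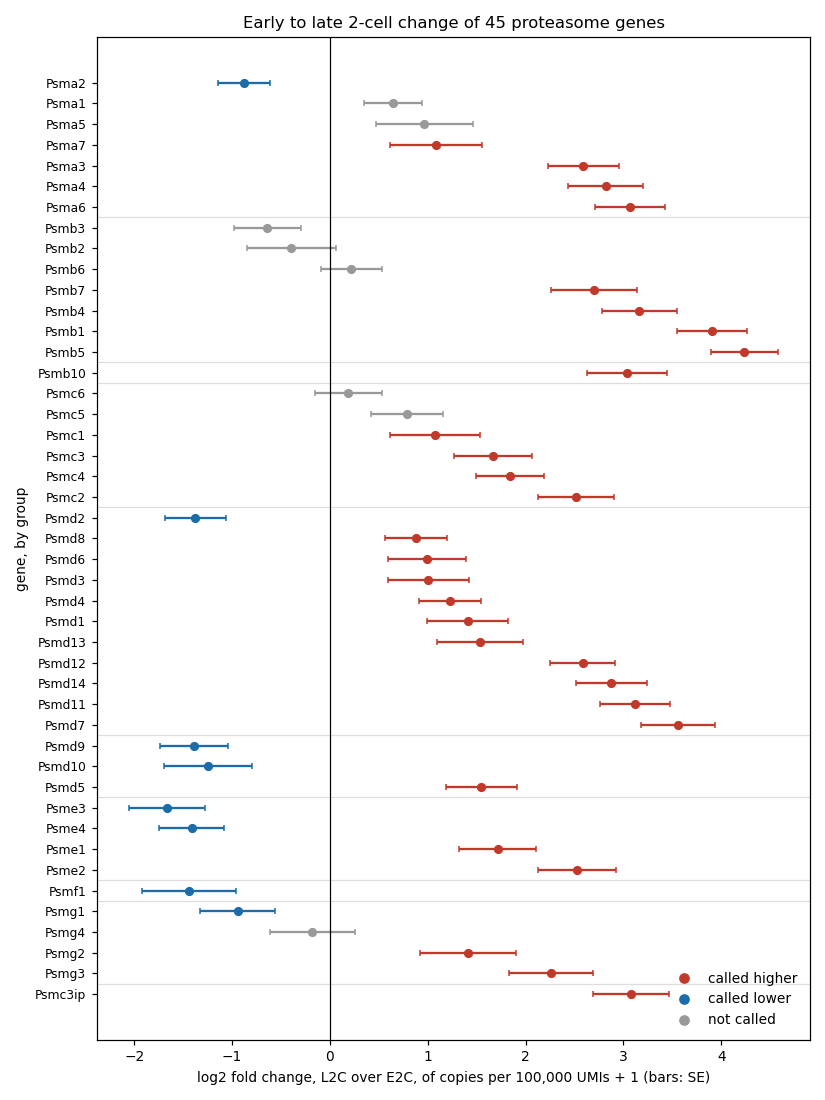
Difference in expression between E2C and L2C (log2 scale of copies + 1, with SE) for the 45 members tested, Psmc3ip included, grouped by role and ordered by size within each group. Red points are called higher, blue points lower and grey points not called. The points run from 4.24 for Psmb5 to -1.66 for Psme3.

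The regulators outside the 19S particle moved in both directions. Psme3, which encodes the nuclear activator PA28 gamma, was at 29.0, 47.0, 43.3, 38.6 and 45.9 copies at E2C and at 10.1 to 24.7 (median 10.8) at L2C, and fell by 1.66 on the log2 scale (SE 0.38, limma adjusted p = 1.86e-04). The stages did not overlap, and L2C embryo 4 stood above the other 5, which lay between 10.1 and 11.1. Psme4, which encodes PA200, an activator known from spermatogenesis, fell by 1.41 (SE 0.33, limma adjusted p = 2.42e-04), from 21.1 to 39.5 copies to 5.01 to 27.8, where L2C embryo 1 overlapped with E2C. Psme1, a subunit of the interferon-inducible activator PA28, rose by 1.72 (limma adjusted p = 1.73e-04), from 0 to 1.09 copies to 1.78 to 6.44. Its partner Psme2 had no UMI in any E2C embryo and was at 2.34 to 16.7 copies at L2C (limma adjusted p = 2.56e-07), where the highest embryo, L2C embryo 1, held 3 UMIs. The pooled UMIs of the L2C cells gave 5.17 copies, at least 14.6-fold higher than the 0.354 copies that 3 UMIs over the E2C stage amount to. The inhibitor gene Psmf1 (PI31) fell by 1.44 (SE 0.48, limma adjusted p = 0.00808), from 3.52 to 10.7 copies to 0 to 5.56. Taken from the isoform table, the falls of Psme3 and Psmf1 came to -1.18 and -0.85 and were not called (limma adjusted p = 0.065 and 0.0982).

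Of the assembly chaperones, those of the 19S base split: Psmd5 rose by 1.55, whereas Psmd9 and Psmd10 fell by 1.39 and 1.25. Psmd9 was at 20.8, 10.9, 12.4, 32.5 and 23.2 copies at E2C and at 3.99 to 11.1 at L2C, where embryo 1 just overlapped. Of the chaperones of 20S assembly Psmg3 and Psmg2 rose by 2.26 and 1.41, Psmg1 fell by 0.94 (limma adjusted p = 0.0303) and Psmg4 was not called (-0.18). Psmc3ip, the recombination cofactor, rose by 3.08.

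Before the E2C stage few members changed. From oocyte to zygote 6 (13.3%, against 11.3% of all genes) were called higher and 1 (2.22%, against 2.56%) lower, with a median of 0.19 against 0.07 for all genes. Psmf1 was at 0 to 4.17 copies (median 0.645) in oocytes and 0.423 to 4.12 (median 3.85) in zygotes, a difference of 1.12 (limma adjusted p = 0.00121) with overlapping ranges, which in the isoform table came to 0.33 and was not called (limma adjusted p = 0.463). Psmb2, Psmd1 and Psmd10 were higher in zygotes by 0.97, 0.83 and 0.82. Psma1, an alpha subunit gene, was lower by 0.77, with 19 to 41.3 copies (median 32.0) in oocytes and 11 to 21.3 (median 19.5) in zygotes (limma adjusted p = 4.05e-04). With no array weights 0 members were called higher.

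From zygote to E2C 2 members (4.44%, against 9.66%) were called higher and 4 (8.89%, against 4.73%) lower. Among all genes called, 67.1% were higher, and 39.5% with TMM scaling. Psme3 rose by 1.10 (limma adjusted p = 0.00388), from 5.93 to 27.5 copies in zygotes to at least 29.0 in every E2C embryo, so the stages did not overlap. Psmd2 also rose, by 0.80 (limma adjusted p = 0.0106), from 5.90 to 11.2 copies to 12.7 to 18.4, again without overlap, though it was not called with TMM scaling (0.54, limma adjusted p = 0.156) or with edgeR (0.62, adjusted p = 0.127). Both genes were called in the opposite direction between E2C and L2C. Psma7 fell by 1.35, Psma1 by 0.96, Psmd7 by 0.91 and Psma2 by 0.77 on the log2 scale. Psma7 was at 13.4 to 63.5 copies in zygotes and at 21.3, 10.7, 15.2, 11.8 and 3.80 at E2C, and its difference was 0.35 in the opposite direction and not called (limma adjusted p = 0.652) when its level was taken from the isoform table. It also lost its call with no filter and with no weights (limma adjusted p = 0.0725 and 0.0714). The call of Psmd7 was lost without E2C embryo 4 or 5 and also with edgeR, DESeq2, a pseudocount of 5, no filter, no weights and the isoform table.

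From L2C to 4-cell 2 members (4.44%, against 1.23%) were called higher and 0 (0%, against 1.93%) lower with limma. At an unadjusted limma p under 0.05, 8 were higher and 2 lower, while edgeR called 1 higher, DESeq2 called 2 higher and both called 0 lower. Of all genes called, 38.9% were higher, and 49.2% with median-of-ratios scaling. Psmb3 was at 2.00 to 41.1 copies (median 23.3) at L2C and at 42.6, 34.7, 35.7, 56.1 and 52.3 at 4-cell, a difference of 1.35 (limma adjusted p = 0.0356) with overlapping groups. Psmd13 was at 1.0 to 6.12 copies and then at 6.01, 0, 9.43, 26.9 and 17 (1.70, limma adjusted p = 0.0418). Without 4-cell embryo 4 neither was called (Psmd13 1.13, limma adjusted p = 0.47, and Psmb3 1.22, 0.232), nor without 4-cell embryo 5. Psmd13 also lost its call with a pseudocount of 0.5, no filter, medians over cells, the isoform table and no weights (0.86, limma adjusted p = 0.253). The call of Psmb3 was lost with a pseudocount of 5, no filter, edgeR and the isoform table.

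From 4-cell to 8-cell 4 members (8.89%, against 4.69%) were called higher and 2 (4.44%, against 10.8%) lower, and the median was 0.40 against -0.16 for all genes. This comparison depended on the scaling: 30.2% of all genes called were higher, but 51.9% with TMM and 44.3% with median-of-ratios factors, under which 8 and 10 members were higher and 0 lower. With edgeR 17 members were called higher and 1 lower, and with DESeq2 15 and 1. Psmc6, an ATPase gene, was at 12.7, 12.5, 8.24, 12.7 and 11.6 copies at 4-cell and at 33.2, 26.9, 28.8 and 41.9 at 8-cell, and rose by 1.43 (limma adjusted p = 0.00381). Psma1 went from 14.9 to 22.3 copies to 34.7 to 60.1 (1.0, limma adjusted p = 0.0246) and Psmb6 from 9.79 to 60.3 to 74.1 to 115 (0.94, limma adjusted p = 0.0442). In none of these genes did the stages overlap. Psmg2, a 20S assembly chaperone gene, rose by 1.56 (limma adjusted p = 0.0342). Psme4 fell by 1.05, from 2.38 to 25 copies to 1.16 to 5.63 (limma adjusted p = 0.0343), and Psme2 fell by 1.25 (limma adjusted p = 0.0381), both with overlap. Except for Psmc6, single embryos decided these calls: that of Psma1 was lost without 4-cell embryo 4 or 5 or 8-cell embryo 4 (limma adjusted p = 0.0521 to 0.0852), that of Psmb6 without 4-cell embryo 1, 2 or 3 or 8-cell embryo 1, 3 or 4 (0.0501 to 0.126), and that of Psmg2 without 4-cell embryo 4 or 8-cell embryo 1 or 2 (0.094 to 0.291). Psme4 was not called without 4-cell embryo 1, 2 or 3 or 8-cell embryo 1 or 2 (limma adjusted p = 0.0634 to 0.158), nor Psme2 without 4-cell embryo 1, 2, 4 or 5 or 8-cell embryo 1, 2 or 4 (0.0536 to 0.163).

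From 8-cell to 16-cell 0 members (0%, against 0.779%) were called higher and 1 (2.22%, against 0.659%) lower with limma. At an unadjusted limma p under 0.05, 4 were higher and 2 lower, while edgeR and DESeq2 called 0 higher and 0 lower. The lower gene was Psmb10, at 12.2, 21.4, 12.4 and 11.2 copies at 8-cell and 3.45, 16.8, 2.62 and 1.88 at 16-cell. The embryo numbered 2 was the highest at each stage, though these are different embryos. The difference of -1.48 (limma adjusted p = 0.0461) was lost without 8-cell embryo 1, 2, 3 or 4 or 16-cell embryo 1 or 3 (limma adjusted p = 0.053 to 0.264).

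Over the whole interval, from oocytes and zygotes together to 8-cell and 16-cell embryos, all 45 genes tested were called, 39 (86.7%, against 37.6% of all genes) higher and 6 (13.3%, against 39.4%) lower. The median was 2.43 against -0.01 for all genes, and the 2 sets of embryos did not overlap for 28 of the higher genes and 1 of the lower, against 13.1% and 14.6% of all genes. All 7 standard beta genes rose (median 3.65), as did all 6 ATPase genes (3.44) and all 11 non-ATPase genes (2.76), while 6 of the 7 alpha genes rose (2.43). The largest differences were those of the ATPase gene Psmc2 (4.41 ± 0.22, limma adjusted p = 3.68e-27), Psmb7 (4.37 ± 0.25, 2.09e-24), Psmb5 (4.35 ± 0.19, 1.5e-29) and Psmb4 (3.73 ± 0.22, 8.95e-24). Psmc2 was at 0 to 3.61 copies in the 19 oocytes and zygotes and at 35.7 to 86.6 in the 8 later embryos.

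The 6 genes that fell were Psme4, Psme3, Psmd9, Psma2, Psmf1 and Psmg1. Psme4 fell by 2.49 (SE 0.19, limma adjusted p = 9.72e-19), from 15.5 to 30.9 copies in oocytes and zygotes to 1.16 to 5.63 in 8-cell and 16-cell embryos, and was the 1 whose sets did not overlap. Psme3 fell by 1.06 (limma adjusted p = 1.72e-05), Psmd9 by 0.86 (9.72e-05) and Psma2 by 0.79 (4.55e-06). In the isoform table the difference of Psme3 was -0.10 and not called (limma adjusted p = 0.767). Psmf1 fell by 0.77 (limma adjusted p = 0.00901), had no UMI in any 4-cell embryo and stood at 0.289 ± 0.423 copies at 16-cell. Psmg1 fell by 0.48 (limma adjusted p = 0.0414), a difference called in 22 of 31 settings. The mean of Psma2 was lowest at L2C and stood at 57.1 ± 12.6 copies at 8-cell and 92.1 ± 13.0 at 16-cell, and the gene was at a median of 104 copies in blastocyst cells.

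Of the immunoproteasome genes, Psmb8 and Psmb9 were close to absent. Psmb8 had 6 UMIs among the 9875846 of all 161 cells, in 1 oocyte and 1 zygote, and Psmb9 had 12 in 11 cells. Both were too low to be tested. Of the UMIs of Psmb5 and Psmb8 together, Psmb8 made up 4 of 46 in oocytes (8.70%, 95% exact binomial interval 2.42 to 20.8%) and 2 of 50 in zygotes (4.0%, 0.488 to 13.7%), stages where Psmb5 itself was near 2 copies. It had 0 of 14 at E2C, with an upper limit of 23.2%, and 0 of 746 at 16-cell, with an upper limit of 0.493% (3 UMIs would be 0.402%). Psmb9 made up 12 of 4467 UMIs of Psmb6 and Psmb9 over all cells (0.269%, 95% exact binomial interval 0.139 to 0.469%). Intervals and floors cover counting error only.

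Psmb10 stood apart from these. It had no UMI in any E2C embryo and was at 0, 16.9, 2.37, 12.5, 5.48 and 11.4 copies in L2C embryos 1 to 6 (limma adjusted p = 4.16e-09). Before L2C it reached 1 copy only in oocyte 10, so it passed the filter through L2C and later embryos. The fit takes 1 spread from all 7 stages, and those before L2C were near 0. This p therefore does not measure the spread among the L2C embryos. The pooled UMIs of the L2C cells gave 9.34 copies, at least 26.4-fold higher than 3 UMIs over the E2C stage. With Psmb10 and Psme2 at their bounds the median over the 45 members stayed at 1.41. It was at 5.63, 27.2, 8.39, 6.68 and 19 copies at 4-cell. As a share of Psmb7 and Psmb10 together it came to 17.3 ± 12.2% at L2C (n = 6), 27.5 ± 13.9% at 4-cell (n = 5), 18.7 ± 6.43% at 8-cell (n = 4) and 8.26 ± 7.66% at 16-cell (n = 4), with overlapping embryos throughout. The 16-cell mean rested on embryo 2 at 19.7%, and without it the share was 4.43 ± 0.436%. Blastocyst cells had 0 to 12.5 copies (median 3.95) and mESCs 16.0 to 55.9 (median 28.0), and these cells did not overlap. The 2 tissue-specific genes had few UMIs: Psma8, the testis-specific alternative to Psma7, had 4 UMIs against 6057 of Psma7, and Psmb11, the thymus-specific beta subunit, had 6. Of the 4 UMIs of Psma8, 3 were in 2 of the 5 mESCs, where it made up 3.23% of the UMIs of Psma7 and Psma8 (95% exact binomial interval 0.67 to 9.14%). Psme2b, a retained copy of Psme2, had 2, and reads of such near-identical copies could have been split between loci.

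Other genes of the pathway were taken from 5 lists, of which 36 genes were tested. Between E2C and L2C 14 of them rose and 7 fell, where 31.1% and 27.8% of all genes were called, and over the whole interval 21 rose and 13 fell, where 37.6% and 39.4% of all genes were called. The ATPase VCP and its cofactors, which pull ubiquitinated proteins from complexes and membranes, rose in 6 of 6 genes over the whole interval, with Nsfl1c at 3.24 and Vcp at 3.11. Of the ubiquitin and ubiquitin-activating enzyme genes 5 of 6 rose and 1 fell, and Rps27a, which encodes ubiquitin fused to a ribosomal protein, rose by 5.32. Rps27a was at 1.03 to 16.8 copies in oocytes, 1.62 to 11.8 in zygotes, 3.80 to 10.6 at E2C and 188 to 312 at 16-cell.

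Of the 13 deubiquitinases and shuttle factors 6 were higher and 6 lower over the whole interval, shares near those of all genes (37.6% and 39.4%). Usp14, a deubiquitinase bound to the proteasome, rose by 2.80, whereas Ubqln2, a shuttle factor, fell by 2.14. Of the 5 further proteasome-associated genes 3 rose and 2 fell. Adrm1, the ubiquitin receptor of the 19S base whose symbol lies outside the Psm series, rose by 3.79, from 2.32 to 6.67 copies in oocytes to 35.7 to 99.1 at 16-cell, and Pomp, the maturation protein of the 20S core, by 2.54. Of the control genes 1 rose and 4 fell among 6. Ngly1, the glycanase that activates NFE2L1, fell by 2.74 and Nfe2l2 by 1.81, while Keap1, which targets NFE2L2 for degradation, rose by 0.86 (limma adjusted p under the 0.05 limit for each gene named here).

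In the fourth run, a separate set of oocytes, Psma2 again took the largest part of the core. The 31 core and 19S genes summed to 231 ± 28.9 copies per 100000 UMIs in the 4 intact oocytes, 238 ± 16.1 in 6 1/2 oocytes and 237 ± 25.9 in 6 1/4 oocytes. These sums come from a table of isoforms and cannot be set beside the gene levels above. In the intact oocytes Psma7 was at 2.03 ± 0.800 copies, and Psmb4 and Psmb7 had no UMI. Psma2 took 45.3 to 53.2%, 44.7 to 51.7% and 46.5 to 57.2% of the core sum in the 3 inputs, whose ranges overlap. The number of members detected was 31 to 34, 31 to 37 and 25 to 34.

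At the isoform level the leading transcript of each proteasome gene was compared between stages. The counts of leading isoforms were not made over all genes, so they do not show a trait of the members. Pooled over all cells, the leading isoform of 42 of the 45 genes with isoforms was a full splice match (FSM), that is, its introns are the complete set of an annotated transcript. FSM isoforms held 75.7 ± 2.70% of the members' isoform UMIs in oocytes and 78.2 ± 8.29% at 16-cell. Over all genes they held 73.8 ± 1.15% and 81.9 ± 4.33%. Of 37 genes with enough UMIs at both ends, 29 had the same leading isoform in oocytes and at 16-cell. Psmb5 was led by the 3-exon PB.23827.14 with 94.9% of its 39 isoform UMIs in oocytes and 91.9% of 654 at 16-cell, so that its rise kept 1 form. The 8 genes whose leading isoform differed were Psma2, Psmb6, Psmd1, Psmd5, Psmd12, Psmd14, Psme3 and Psme4.

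Isoform shares were compared with limma on arcsine square root shares, over genes with at least 10 isoform UMIs in an embryo. With these limits calls fell in 1 interval, from E2C to L2C. There 7 of the 19 member isoforms tested (36.8%, against 24.8% of all isoforms) were called, in 4 of 7 genes. In the 5 other intervals limma called 0 of 43, 38, 44, 42 and 61 member isoforms, in order of stage, against 0.0318%, 3.07%, 0%, 0% and 0% of all isoforms, and 1, 6, 7, 6 and 0 were at an unadjusted p under 0.05. Leaving out 1 embryo at a time gave 4 to 7 calls from E2C to L2C and 0 to 1 from zygote to E2C. At least 20 UMIs or a share of 10% gave 4 from E2C to L2C. A limit of 5 UMIs or untransformed shares gave calls from zygote to E2C. The difference between intervals was not tested.

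Psmb6 changed its 3′ end while its level did not pass the test. PB.12057.1 and PB.12057.2 each have 6 exons with the same introns and hold the start codon, but after the stop codon the first runs on for 78 bases and the second for 297. Their 5′ ends lie 29 bases apart. PB.12057.2, the long form, made up 66.0, 69.6, 68.2, 75.6 and 67.7% of the Psmb6 isoform UMIs in the E2C embryos and 0, 8.57, 2.50 and 10.4% in the 4 L2C embryos with enough UMIs (limma adjusted p = 1.62e-05). PB.12057.1, the short form, went from 27.7, 13.0, 25, 15.6 and 25.8% to 91.8, 88.6, 95 and 83.3% (limma adjusted p = 8.76e-06). The groups did not overlap for either form. In oocytes the long form stood at 66.2 ± 8.68% (n = 10), and at 16-cell at 4.14% on average against 86.1% for the short form. In the 16 libraries of the fourth run it stood at 67.9 ± 10.1% (53.6 to 91.3%), and the short form at 10.2 ± 5.87%, against 27.9 ± 10.0% in the oocytes of the first 3 runs.

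Psma2 showed the same kind of change while its level fell. The long form PB.19045.4 has 241 bases after the stop codon and the short form PB.19045.6 has 140. Both have 8 exons with the same introns, and their 5′ ends lie 19 bases apart. The long form was at 45, 40.6, 39.7, 39.0 and 50.5% at E2C and at 1.96 to 13.3% in 5 L2C embryos (limma adjusted p = 1.05e-04). The short form went from 39.4 ± 7.12% to 85.9 ± 5.72% (limma adjusted p = 6.32e-05), with no overlap, and was at 79.0 ± 3.22% at 16-cell. In the fourth run the long form was at 33.5 ± 2.22% and the short form at 13.0 ± 2.61%, so that other Psma2 isoforms held more than in the first 3 runs. The isoform sets are not alike: that of the fourth run is separate, with 49271 isoforms, and that of the first 3 runs holds 68012, each seen in at least 5 cells. How this bears on the shares of Psma2 and Psmb6 was not tested.

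The 3′ parts of the short forms are shown because the forms differ most there. Each sequence is up to 30 bases near the end of the final exon in mm10, 5′ to 3′, with the polyadenylation hexamer AATAAA in capitals, and Psma1 is added since its main form also ends after one.
Psmb6 PB.12057.1, chr11:70527628-70527657, plus strand: agctAATAAAcagtttgttaaagagacgtt
Psma2 PB.19045.6, chr13:14625569-14625598, plus strand: atAATAAActgttaaaaccaattttagttt
Psma1 PB.68871.4, chr7:114264606-114264629, minus strand: gaAATAAAattgtttcaccaccta
The hexamer ends 20, 29 and 23 bases before the last base of these isoforms, of which the Psma2 and Psma1 isoforms run 7 bases beyond the sequence shown. It was not found in the last 40 bases of PB.19045.4 or PB.68871.55, nor in the 22 of the last 40 bases that could be read for PB.12057.2. Other hexamers were not searched.

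**Figure D4:**
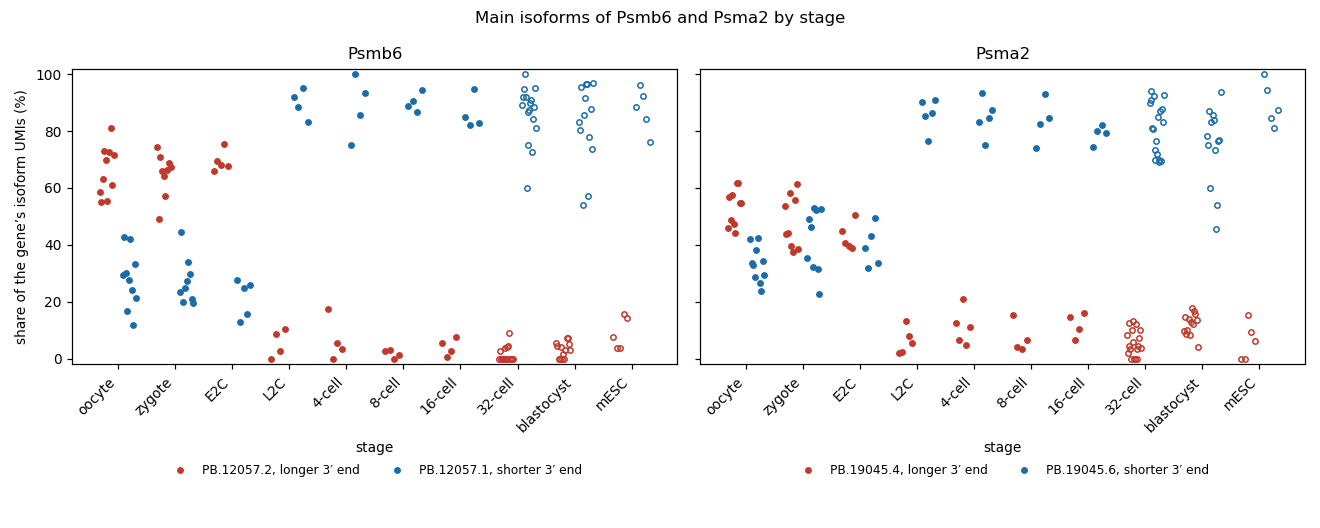
Share of the long and the short 3′ form among the isoform UMIs of Psmb6 and of Psma2 (percent) by stage. Points are embryos with at least 10 isoform UMIs of the gene, or single cells where no embryo is named. For Psmb6 the long form is at 69.4 ± 3.67% at E2C and 5.37 ± 4.93% at L2C, and the short form takes the reverse course.

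The remaining calls were in Psma1 and in Psmc5, an ATPase gene. PB.68871.55 of Psma1 has 199 bases after the stop codon against 301 in the main form PB.68871.4, with 5′ ends 80 bases apart, and was at 11.5, 21.4, 6.67 and 7.69% in 4 E2C embryos and 0% in all 5 L2C embryos (limma adjusted p = 0.00151). PB.68871.4 went from 69.3 ± 5.48% to 87.9 ± 2.93% (limma adjusted p = 0.0116). PB.14301.2 of Psmc5 went from 2.08 ± 4.17% to 10.4 ± 4.31% (limma adjusted p = 0.0481) and was at 1.75% at 16-cell.

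Further genes whose leading isoform differed between stages, or which held incomplete forms, are given by their pooled UMIs, and no isoform of theirs was called where it could be tested. Psmd12 was led by PB.14423.6, with 325 bases after the stop codon, with 13 of 32 UMIs at E2C, and by PB.14423.11, with 68, at L2C (91 of 164) and 16-cell (247 of 434). Psme3 was led at E2C by PB.13933.1, with 1664 bases after the stop codon (12 of 57 UMIs), and at L2C by PB.13933.3, with 158 (11 of 27). In Psmd14 the leading form of oocytes, PB.41898.110, has 4 exons and no stop codon (13 of 47 UMIs), while the full 12-exon PB.41898.108 led at 16-cell (145 of 242). Psmd4 had a 5-exon form without stop codon, PB.48305.184, with 55 of 320 UMIs in oocytes and 57 of 389 in zygotes, and 1 UMI at E2C. Its share was 13.7 ± 11.1% in zygotes and 1.11 ± 2.49% at E2C, which did not pass the test (limma adjusted p = 0.117). For Psme4, a long transcript, no isoform held both the start and the stop codon, and the leading forms were fragments of 2 to 8 exons. Isoforms with both codons made up 81.1 ± 2.51% of the members' isoform UMIs in oocytes, 74.4 ± 6.88% at E2C and 81.4 ± 2.76% at L2C, with overlapping ranges.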

How the data were processed

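The authors aligned consensus reads to mm10 with minimap2, assigned UMIs to genes and isoforms, removed isoforms seen in fewer than 5 cells, and deposited values for 161 cells as copies per 100000 UMIs, that is CPM divided by a constant. Gene values sum to 100000 in each cell and isoform values to 84419 to 97144. Whole UMIs were recovered from 100% of values within 0.1. For the fourth run, deposited values are whole UMI counts of isoforms, with totals of 129744 to 289774. The deposited isoform coordinates were compared with GENCODE codons.

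Stage and embryo were read from column names. Cells were averaged per embryo and 7 stages fitted with limma 3.58.1 (trend and array weights, pseudocount 1, at least 1 copy in 4 embryos) in R 4.3.3. Isoforms needed a mean share of 5% and 3 embryos a stage. Recovered UMIs were also tested with edgeR 4.0.16 and DESeq2 1.42.0. Of 6234 genes between E2C and L2C, edgeR called 2404 higher and 2189 lower, and DESeq2 2153 and 2471. The limma steps were tested on simulated data. Alternatives were other pseudocounts, filters, scaling, weights and tools, the study's limits (log2 difference over 1, unadjusted p under 0.01), the isoform table, medians over cells and leaving out each embryo of the stages with 4 or 5 and L2C embryo 1. The members, lists and tests were chosen with earlier results of these data known. Genes named were, per comparison, up to 4 called members with the largest difference in each direction, the immunoproteasome, activator and inhibitor genes with their counterparts, and members near 0. Pathway genes were named by the size of the whole-interval difference, up to 2 a list, and others named were chosen after their values were seen.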

Additional observations from a re-analysis of the deposited data

Results flagged for a closer look

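In groups of 4 to 10 embryos, 12 of the 96 sets of values tested held 1 embryo whose gap to its nearest neighbour was large against the range of its group. Chance gives such a gap in about 1 in 20 groups. The beta ring sum of E2C embryo 2 was 84.3 copies, against 133.7 to 152.4 in the others. The sum of the 20S assembly chaperones in 4-cell embryo 2 was 9.79 copies, against 25.1 to 29.5. Psma2 was at 67.0 copies in 4-cell embryo 2 (others 39.7 to 46.8) and at 111 copies in 16-cell embryo 3 (84.3 to 87.9). Psmb5 was at 22.0 copies in 4-cell embryo 1 (52.1 to 64.4).

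Psmb10 stood out in 4 embryos: oocyte 10 at 1.10 copies (others 0 to 0.464), zygote 6 at 0.310 (all others 0), which are 2 UMIs and 1 UMI, under the floor of 3 UMIs, 8-cell embryo 2 at 21.4 (11.2 to 12.4) and 16-cell embryo 2 at 16.8 (1.88 to 3.45). Psme3 was at 24.7 copies in L2C embryo 4 (10.1 to 11.1). Psmf1 was at 0.423 copies in zygote 8 (2.27 to 4.12) and at 4.07 copies in 8-cell embryo 2 (0 to 0.366).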

How the results depend on the processing

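Across the settings 24 to 31 members were higher and 6 to 10 lower at L2C, and 34 to 39 were higher over the whole interval, where 4 to 6 were lower except with the study's limits, which gave 2. The counts of the other intervals depended on the processing, and the cause was not tested. From oocyte to zygote the higher count was 1 with the study's limits, 3 with no filter, 0 with no array weights and 2 each with edgeR and DESeq2, and the lower count was 0 with the study's limits and 2 with a filter at 5 copies, with median-of-ratios scaling and with the isoform table. From zygote to E2C the higher count was 1 with the study's limits, TMM and edgeR, and the lower count 1 with the study's limits and 2 with no filter, no weights or the isoform table. Psma7 reversed in the isoform table (0.35). From L2C to 4-cell the higher count was 1 with a pseudocount of 0.5 or 5, medians over cells or edgeR, 0 with no filter or the isoform table and 5 with no weights, which gave 1 lower. From 4-cell to 8-cell the higher count was 2 with the study's limits, a pseudocount of 0.5 or the isoform table, 8 with a pseudocount of 5, no weights or TMM, 10 with median-of-ratios scaling, 17 with edgeR and 15 with DESeq2. The lower count there was 1 with a pseudocount of 0.5 or 5, no filter, edgeR or DESeq2, and 0 with TMM, median-of-ratios scaling or the isoform table. From 8-cell to 16-cell the study's limits gave 1 higher and 2 lower, a pseudocount of 5 gave 2 lower, and a pseudocount of 0.5, no filter, no weights, TMM, edgeR, DESeq2, the isoform table and leaving out the 4 cells under 10000 UMIs (added after seeing the data) each gave 0 lower.

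Isoform calls from E2C to L2C were 4 with at least 20 UMIs or a share of 10%, and from zygote to E2C 3 with at least 5 UMIs and 1 on untransformed shares. With TMM the alpha sum was 230.1 copies in oocytes and 198.5 at 4-cell, against 189 and 257 without it, so that the order of these stages reversed. At 4-cell the beta sum was 224.2 (292 without TMM) and the ATPase sum 98.9 (128). The non-ATPase sum was 85.6 in oocytes, 93.0 in zygotes and 166 at L2C, against 70.2, 76.2 and 220 without TMM. Leaving out 1 embryo at a time, in the stages of 4 or 5 embryos and for L2C embryo 1 (added after seeing the data), gave 6 to 7 higher and 1 lower from oocyte to zygote, 2 higher and 3 to 4 lower from zygote to E2C, 26 to 29 and 6 to 8 from E2C to L2C, 0 to 2 higher and 0 lower from L2C to 4-cell, 2 to 4 and 0 to 2 from 4-cell to 8-cell, 0 to 1 each from 8-cell to 16-cell, and 39 higher and 5 to 6 lower over the whole interval. The isoform calls, over the stages of 4 or 5 embryos alone, were then 4 to 7 from E2C to L2C and 0 to 1 from zygote to E2C. No oocyte or zygote was left out, so the range from oocyte to zygote does not show the effect of single oocytes or zygotes. Of the values of single named genes under the other settings, 365 kept direction and call, 57 kept direction but lost the call and 1 reversed. Between E2C and L2C, Psmf1 lost its call with no filter, and Psme3 and Psmf1 in the isoform table. Over the whole interval, Psme2 changed direction in 1 of 31 settings (-0.19). No paired analysis was possible because embryos of different stages are different embryos. At 4-cell a median cell held 32466 UMIs, so that 1 UMI is about 3 copies and members near 0 cannot be ranked.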
